A study of Mus musculus with 8 samples.

Results

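This account follows 9 genes of glucocorticoid signalling through the striatum of MPTP-treated and needled mice. They are the receptor genes Nr3c1 and Nr3c2, the steroid-activating enzyme gene Hsd11b1, and the target genes Sgk1, Fkbp5, Tsc22d3, Zbtb16, Arrdc2 and Plin4. Each was measured by 1 probe set that carries that single gene symbol in the platform's annotation. The members stand beside 16342 probe sets for 14890 genes tested in all, and all 9 passed the filter on dim probe sets. They were chosen by measured values of these same arrays. Sgk1 had been seen high after MPTP alone and after MPTP with acupoint needling, and at control level after MPTP with needling of the hips. Its differences are therefore given as a description with no test, and so are those of Zbtb16, Arrdc2 and Plin4 between MPTP and control. Other comparisons of Zbtb16, Arrdc2 and Plin4 with the MPTP or control group reuse those arrays. Their p-values there are printed but lend no independent support.

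RNA was taken from both striata of 8 male C57BL/6 mice, an inbred strain, aged 6 weeks, with 1 array per mouse and 2 mice in each of 4 groups. MPTP is a neurotoxin that damages the dopamine axons reaching the striatum and serves as a mouse model of Parkinson's disease. Control mice received saline once a day for 4 weeks, and the other groups received MPTP-HCl at 20 mg/kg every 24 h over the same time. Mice given MPTP alone form the MPTP group. In the acupoint group, needles went in on both sides at GB34, to 3 mm, and at LR3, to 1 mm. In the hip group they went into both hips, at non-acupoints, to 3 mm. Needling was done by hand in 14 sessions 48 h apart, the first of them 2 h after the first MPTP injection. No group was needled without MPTP, so needling alone is not part of the comparisons. Needled mice were held by hand at each session, which is described for the acupoint group with the same procedure for the hip group, per the labels' protocols. Holding is not described there for the control and MPTP groups.

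Glucocorticoids, chiefly corticosterone in mice, enter cells and bind the glucocorticoid receptor or the mineralocorticoid receptor, which are held ready by a chaperone complex around heat shock protein 90. The bound receptor moves to the nucleus and attaches to response elements near its target genes, whose transcripts rise within hours of a stressor or of the daily hormone peak. In the brain these targets are switched on in neurons, glia and blood vessels alike, and several of them feed back on the receptor or on ion transport.

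The response element is a palindrome of a pair of half-sites set 3 bases apart, and the sequence upstream of Sgk1 shows it in full. Promoter windows of 300 bases (250 before and 50 after each annotated start, RefSeq, GRCm38.p6) are counted here for 7 of the 9 members, 14 windows in all. Zbtb16 had no window, and Nr3c1 was left out because the sequence of its chromosome is not shown here. Both strands were searched for the palindrome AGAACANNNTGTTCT and for its half-site AGAACA, which each palindrome also contains. The palindrome was found in 1 member window, 1 of 6 for Sgk1, and in 3 of 32851 windows of all genes (0.00913%). The half-site was found in 4 of the 14 member windows, against 19.0% of all windows. Those 4 windows belong to Sgk1, which has 6 windows, and to Tsc22d3, which has 3, and to no other member. Among all genes, 5750 of 27025 had a window with the half-site. The element of Sgk1 lies at chr10:21993701-21993715 on the plus strand, and starts 189 bases before that annotated start. The 250 bases before the start are shown for it, and for a Tsc22d3 window with a single half-site 185 bases before its start, with every half-site in capitals.
Sgk1, chr10:21993640-21993889, plus strand: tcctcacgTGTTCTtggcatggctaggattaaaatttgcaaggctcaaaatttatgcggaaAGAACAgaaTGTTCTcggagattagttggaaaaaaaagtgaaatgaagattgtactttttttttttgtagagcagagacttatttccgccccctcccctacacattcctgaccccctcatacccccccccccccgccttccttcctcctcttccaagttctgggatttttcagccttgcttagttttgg
Tsc22d3, chrX:140600523-140600772, minus strand: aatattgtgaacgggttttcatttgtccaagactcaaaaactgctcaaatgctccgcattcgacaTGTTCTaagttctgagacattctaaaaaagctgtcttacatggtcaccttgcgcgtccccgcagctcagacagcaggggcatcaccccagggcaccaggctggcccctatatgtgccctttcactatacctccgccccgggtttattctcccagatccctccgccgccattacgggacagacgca
A match of letters is a description of the window, and binding was not measured here.

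The arrays differed in tissue markers within groups as well as between them, and 1 array stood apart. Relative to the control mean, 10 markers of striatal medium spiny neurons averaged -2.07 on the log2 scale in MPTP mouse 1 and between -0.62 and 0.36 in the other MPTP-treated mice. Ppp1r1b, which encodes the striatal signalling protein DARPP-32, was at 8.97 in MPTP mouse 1 and between 10.65 and 11.65 in the other 7 arrays. Markers of the neighbouring thalamus averaged 2.08 in MPTP mouse 1 and 1.35 in hip mouse 2, and those of the choroid plexus, which lines the ventricles beside the striatum, averaged between 2.32 and 2.98 in MPTP mouse 1, acupoint mouse 1 and both hip mice. In the other 4 arrays the choroid plexus mean lay between -0.22 and 0.14. Markers of ependymal cells, the ciliated lining of the ventricles, set the MPTP mice below all other arrays. The mean of these markers was -0.61 and -0.31 in MPTP mice, 0.11 and -0.15 in acupoint mice and 0.12 and 0.40 in hip mice. The acupoint mice lay on both sides of the controls (-0.01 and 0.01). All 9 tested of 10 listed were lower after MPTP than in controls without overlap (median -0.505), as were 12.1% of all probe sets. All 9 were higher in hip than in MPTP mice without overlap (median 0.668), against 15.4% of probe sets. All 9 also had an unadjusted p under 0.05 there by limma, against 6.58% of probe sets in either direction, though 0 passed the adjusted threshold. The part of this shift in the differences of MPTP mice from controls and from hip mice given here was not tested. In such bulk tissue, fewer cells of a type and less RNA per cell cannot be told apart.

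Sgk1 encodes a kinase that keeps ion channels and transporters at the cell surface and is among the genes most quickly induced by glucocorticoids. Its log2 values were 8.86 and 9.07 in the control mice, 9.84 and 9.77 in the MPTP mice, 9.98 and 9.82 in the acupoint mice, and 8.83 and 9.06 in the hip mice. Every MPTP and acupoint array was thus above every control and hip array, with a gap of 0.71 between the nearest values. The MPTP mean exceeded the control mean by 0.84 (SE 0.13, 1.79-fold), and the acupoint mean exceeded the hip mean by 0.95 (SE 0.13, 1.93-fold). The hip mean differed from the control mean by -0.01. Leaving out any 1 array kept the MPTP excess over control between 0.74 and 0.95.

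The tissue markers of the same arrays are given beside these levels. The MPTP mice differed by 0.063 in Sgk1, with a smaller difference in 17.9% of probe sets, while their choroid plexus marker means were 2.34 and -0.22 and their striatal neuron means -2.07 and 0.36. Markers of oligodendrocytes, the myelin-forming cells, averaged 0.27 and -0.17 in the MPTP mice, -0.04 and 0.03 in the acupoint mice and -0.12 and 0.17 in the hip mice. Ependymal marker means were -0.61 and -0.31 in the MPTP mice, 0.11 and -0.15 in the acupoint mice and 0.12 and 0.40 in the hip mice. The part of tissue makeup in the levels of Sgk1 was not tested.

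**Figure D1:**
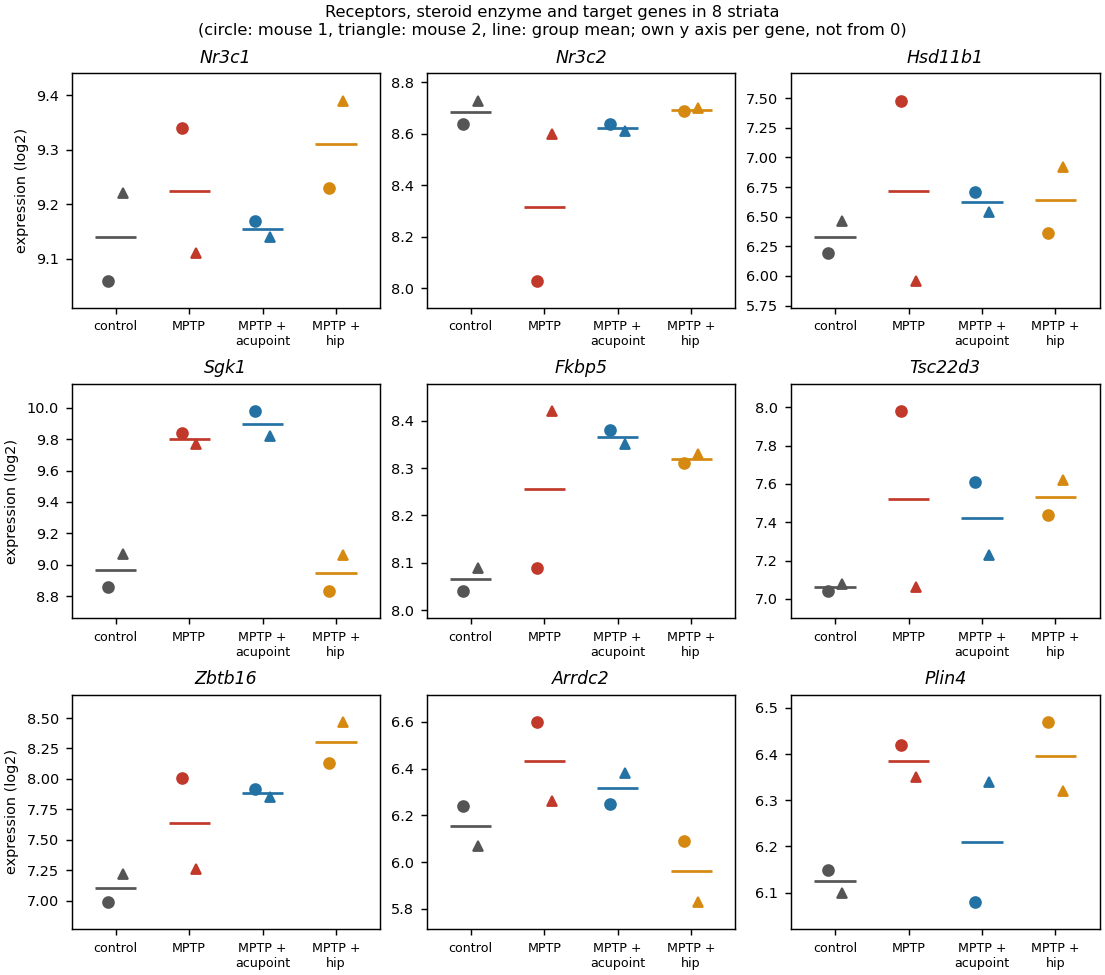
Log2 expression of the 9 genes in each of the 8 arrays, by group, with circles for mouse 1, triangles for mouse 2 and a line at the group mean; each gene has its own axis, which does not start at 0. Sgk1 separates the MPTP and acupoint mice (9.77 to 9.98) from the control and hip mice (8.83 to 9.07), while Zbtb16 is highest in the hip mice (8.13 and 8.47).

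The other targets did not share one pattern with Sgk1. Fkbp5 encodes a co-chaperone of heat shock protein 90 that lowers the receptor's affinity for hormone, which closes a short feedback loop. On the log2 scale Fkbp5 was at 8.04 and 8.09 in controls, 8.09 and 8.42 in MPTP mice, 8.38 and 8.35 in acupoint mice, and 8.31 and 8.33 in hip mice. Both needled groups lay above both controls, with MPTP mouse 2 at their level and MPTP mouse 1 at the level of the higher control. The acupoint mean of Fkbp5 exceeded the hip mean by 0.05 (SE 0.12, 95% interval -0.25 to 0.34), without overlap, as in 13.9% of probe sets. That interval is too wide to show that the needled groups were equal.

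Tsc22d3 encodes GILZ, a leucine zipper protein through which glucocorticoids damp inflammatory transcription. Its log2 values were 7.04 and 7.08 in controls, 7.98 and 7.06 in MPTP mice, 7.61 and 7.23 in acupoint mice, and 7.44 and 7.62 in hip mice. The value of MPTP mouse 2 lay between those of the controls, and both needled groups lay above them. The MPTP mean exceeded the control mean by 0.46 (SE 0.29, 95% interval -0.22 to 1.14, adjusted p = 0.93 by limma). This rests on mouse 1: without it the difference was -0.0031, and without mouse 2 it was 0.92 (adjusted p = 0.021, with MPTP mouse 1 alone assumed to vary like the other groups).

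Zbtb16 encodes PLZF, a zinc finger repressor of transcription that is induced by glucocorticoids in many tissues. The log2 values of Zbtb16 were 6.99 and 7.22 in controls, 8.01 and 7.26 in MPTP mice, 7.92 and 7.85 in acupoint mice, and 8.13 and 8.47 in hip mice. All 6 MPTP-treated mice were above both controls, a pattern held by 3.72% of probe sets, and the hip mice, in which Sgk1 was at control level, had the highest values. The hip mean exceeded the control mean by 1.20 (SE 0.25, 2.29-fold, unadjusted p = 0.0019, adjusted p = 0.77 by limma) and the MPTP mean by 0.67 (SE 0.25, unadjusted p = 0.031, adjusted p = 0.74). Neither difference passed the adjusted threshold of 0.05. Ependymal and choroid plexus markers were also higher in hip than in MPTP mice (medians 0.668 and 1.28). Both differences reuse arrays seen when Zbtb16 was chosen, so their p-values lend no independent support.

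Tsc22d3 and Zbtb16 were the members whose 4 highest arrays were the 4 rich in choroid plexus markers, namely MPTP mouse 1, acupoint mouse 1 and both hip mice. This order was held by 2 of the 9 members and by 7.71% of all probe sets. In MPTP mouse 2 and acupoint mouse 2, which were poor in those markers (-0.22 and 0.14), Zbtb16 was 0.15 and 0.75 above the control mean, and Tsc22d3 was at the control mean in MPTP mouse 2 and 0.17 above it in acupoint mouse 2. Ttr, the main secreted product of the choroid plexus, was between 13.20 and 13.49 in the 4 rich arrays and between 8.12 and 9.98 in the others. The part of choroid plexus tissue in these values was not tested.

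Arrdc2 encodes an arrestin-domain protein, of a family that guides the traffic of membrane proteins. Its log2 values were 6.24 and 6.07 in controls, 6.60 and 6.26 in MPTP mice, 6.25 and 6.38 in acupoint mice, and 6.09 and 5.83 in hip mice. Arrdc2 was the other target whose MPTP and acupoint arrays all lay above the control and hip arrays, by a gap of only 0.015 (0.076 with arrays centred on their medians, 0.056 after a second quantile normalisation). The hip mean was below the MPTP mean by 0.47 (a difference of -0.47, SE 0.15, 95% interval -0.83 to -0.10, unadjusted p = 0.019, adjusted p = 0.71). That comparison reuses the MPTP arrays seen when Arrdc2 was chosen, so its p-values lend no independent support. The acupoint mean exceeded the hip mean by 0.35 (SE 0.15, 95% interval -0.01 to 0.72, adjusted p = 0.96).

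Plin4 encodes a perilipin, a coat protein of lipid droplets. On the log2 scale it was at 6.15 and 6.10 in controls, 6.42 and 6.35 in MPTP mice, 6.08 and 6.34 in acupoint mice, and 6.47 and 6.32 in hip mice. Acupoint mouse 1 was the only MPTP-treated mouse below the controls. The hip mean exceeded the control mean by 0.27 (SE 0.12, 95% interval -0.01 to 0.55, adjusted p = 0.77), and the hip and MPTP means differed by 0.0086.

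Read array by array, most targets stood above both controls in every MPTP-treated mouse, and the hip mice were no exception apart from Sgk1 and Arrdc2. All 6 targets were above both controls in MPTP mouse 1 and acupoint mouse 2, 5 of 6 in MPTP mouse 2 and acupoint mouse 1, and 4 of 6 in each hip mouse. The share of all tested probe sets above both controls was between 29.7% and 44.5% in these arrays. The median difference of the 6 targets from the control mean was 0.66 and 0.19 in the MPTP mice, 0.43 and 0.26 in the acupoint mice and 0.30 and 0.23 in the hip mice, while the median of all probe sets lay between -0.031 and 0.025. These targets were picked as known responders with part of these values in view, so the counts describe them and support no direction.

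**Figure D2:**
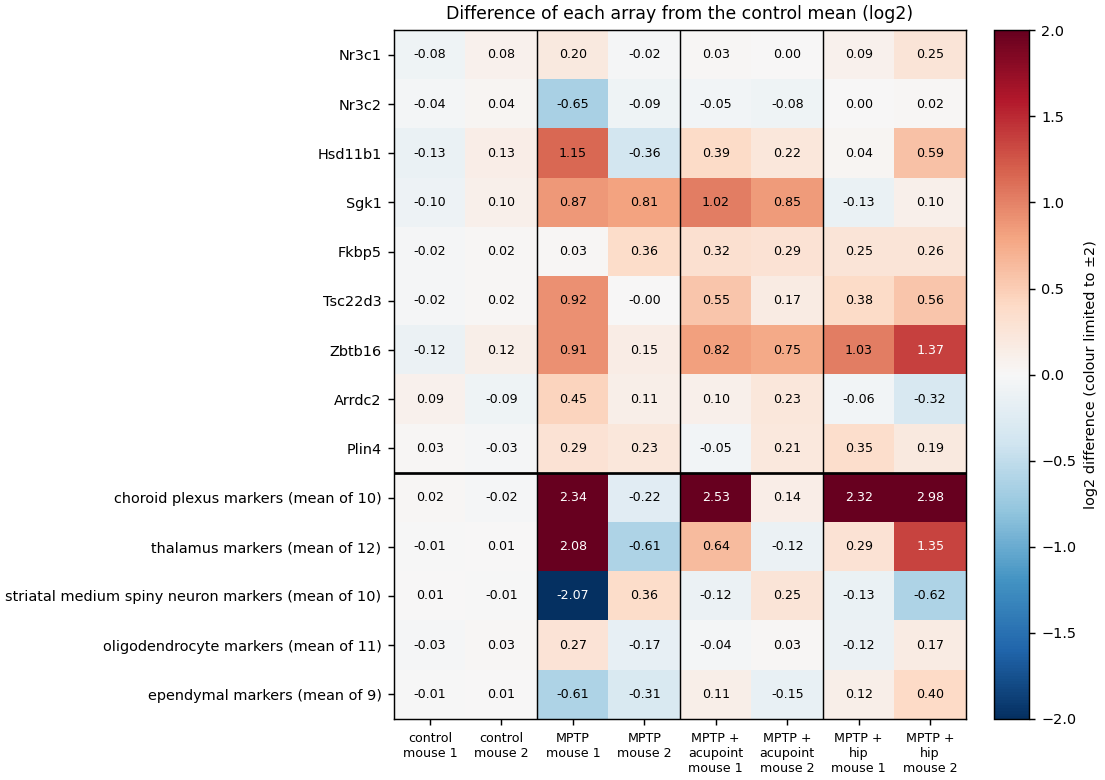
Difference of each array from the control mean, in log2 units and colour, for the 9 genes (above the line) and for the mean of 5 cell type marker lists (below it). Zbtb16 and Tsc22d3 are highest in the arrays with choroid plexus means of 2.32 to 2.98, and Sgk1 is 0.81 to 1.02 above the control mean in the MPTP and acupoint arrays.

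Transcripts of the receptors were close to control in most arrays. Nr3c1 encodes the glucocorticoid receptor, present in nearly all brain cells. In log2 units Nr3c1 stood at 9.06 and 9.22 in controls, 9.34 and 9.11 in MPTP mice, 9.17 and 9.14 in acupoint mice, and 9.23 and 9.39 in hip mice. The MPTP and acupoint arrays overlapped the control range, and both hip mice lay above it, by 0.01 in the nearer case. Its range over the 8 arrays was 0.33, with a smaller range in 29.0% of probe sets. The MPTP mean differed from control by 0.09 (SE 0.12, 95% interval -0.20 to 0.37, adjusted p = 0.94), and the acupoint mean from the hip mean by -0.15 (SE 0.12, 95% interval -0.44 to 0.13).

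Nr3c2 encodes the mineralocorticoid receptor, which binds corticosterone more tightly and is occupied at resting hormone levels. Its log2 values were 8.64 and 8.73 in controls, 8.03 and 8.60 in MPTP mice, 8.64 and 8.61 in acupoint mice, and 8.69 and 8.70 in hip mice. Only MPTP mouse 1, the array poor in striatal neuron markers (-2.07), stood clearly below the rest. The MPTP mean differed from control by -0.37 (SE 0.18, 95% interval -0.79 to 0.05, adjusted p = 0.93). The difference was -0.09 without MPTP mouse 1 and -0.65 without mouse 2 (adjusted p = 0.015, with MPTP mouse 1 alone in its group). The part of the missing striatal neuron signal was not tested.

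Hsd11b1 encodes the enzyme that turns inert 11-dehydrocorticosterone back into corticosterone inside cells. On the log2 scale Hsd11b1 stood at 6.19 and 6.46 in controls, 7.48 and 5.96 in MPTP mice, 6.71 and 6.54 in acupoint mice, and 6.36 and 6.92 in hip mice. The MPTP mice were the highest and the lowest of all 8, and their difference of 1.52 was larger than that of 97.8% of probe sets. The acupoint mice lay above both controls and the hip mice overlapped them. The MPTP mean exceeded the control mean by 0.40 (SE 0.45, 95% interval -0.67 to 1.46, adjusted p = 0.93). This value was -0.36 without MPTP mouse 1 and 1.16 without mouse 2, each with the other mouse alone in its group. MPTP mouse 1 and hip mouse 2, the highest pair, also had the highest thalamus marker means (2.08 and 1.35). The part of that tissue was not tested.

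None of the tested differences in these genes passed the adjusted threshold, and limma called 0 of 16342 probe sets (0.0%) in each of the 6 comparisons between groups. With MPTP mouse 2 left out, and its group down to the array that stood apart, 1607 were called for MPTP against control, 1453 for acupoint against MPTP and 794 for hip against MPTP. The comparisons share arrays, so their values are given side by side and not as independent results. For MPTP against control, 3.99% of probe sets had an unadjusted p under 0.05, and 0 of the 5 members tested did. All targets but Tsc22d3 had MPTP arrays that lay above the controls without overlap, as did 17.3% of probe sets. Fkbp5 is counted there with a margin under 0.01. Nr3c2 lay below without overlap, as did 12.1% of probe sets.

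The contrasts among MPTP-treated mice ask whether these genes differed with needling, or with its site. Markers of cortical excitatory neurons, 8 tested of 10 listed, also differed there. Against MPTP, 5 were lower and 3 higher in acupoint mice (median -0.449), and 6 lower and 2 higher in hip mice (median -0.219). Relative to the control mean they averaged -0.17 and -0.01 in MPTP mice, -0.42 and -0.54 in acupoint mice and -0.68 and -0.02 in hip mice. The part of that tissue in these contrasts was not tested. For acupoint against MPTP, 3.6% of probe sets and 0 of the 8 members tested had an unadjusted p under 0.05. Nr3c2 was higher without overlap (8.41% of probe sets), by 0.30 (SE 0.18, adjusted p = 0.90). Without MPTP mouse 2, which left mouse 1 alone in its group, that difference was 0.59. Plin4 was lower without overlap (18.9%), by -0.18 (SE 0.12, adjusted p = 0.90). For hip against MPTP, Zbtb16 and Arrdc2 were the 2 of 8 members with an unadjusted p under 0.05, against 6.58% of probe sets. Both genes were chosen with their MPTP values in view, so this count lends no independent support. Zbtb16 and Nr3c2 were higher without overlap (15.4%), and Sgk1 and Arrdc2 lower (17.7%).

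Between the needling sites, Sgk1, Arrdc2 and Fkbp5 were higher in the acupoint mice without overlap (13.9% of probe sets), and Zbtb16, Nr3c1 and Nr3c2 lower (24.6%). None of the 8 members tested had an unadjusted p under 0.05 there, against 3.22% of probe sets. The acupoint mean of Zbtb16 differed from the hip mean by -0.42 (SE 0.25, 95% interval -1.0 to 0.17, adjusted p = 0.96). Against control, acupoint mice had 5 targets and Hsd11b1 higher without overlap (12.7%) and Nr3c2 lower (21.2%), with Zbtb16 and Fkbp5 at an unadjusted p under 0.05 (1.91% of probe sets). Zbtb16 was higher there by 0.78 (SE 0.25, unadjusted p = 0.016) and Fkbp5 by 0.30 (SE 0.12, unadjusted p = 0.045), each with an adjusted p of 1. Hip mice had 4 targets and Nr3c1 higher than control without overlap (26.9%) and 0 members lower (22.6%), and Zbtb16 alone had an unadjusted p under 0.05 (6.05%). The control values of Zbtb16 were in view when it was chosen, so its p-values against control lend no independent support.

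**Figure D3:**
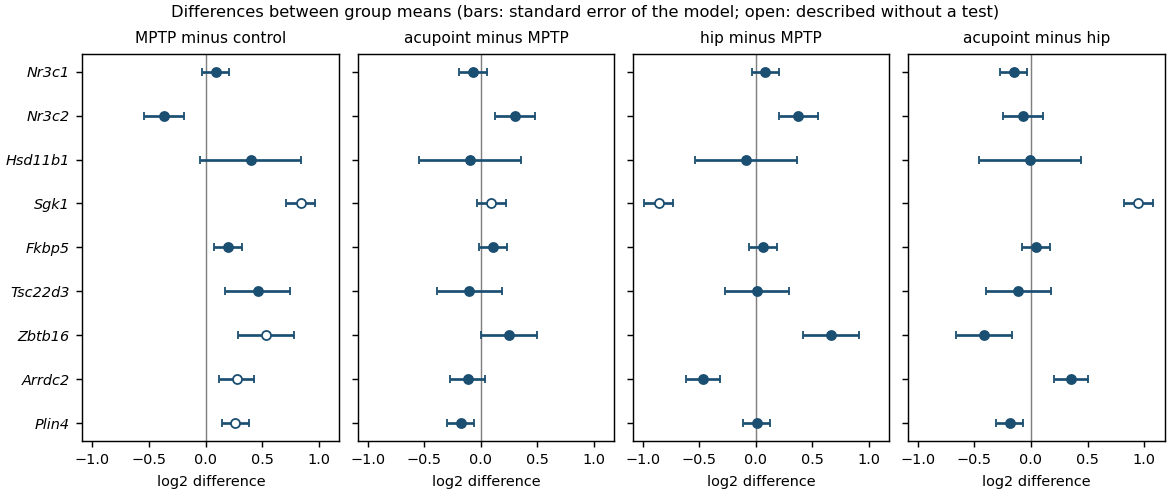
Differences between group means in log2 units for the 9 genes in 4 comparisons, with bars for the standard error from the model over all 8 arrays and open points for values described without a test. Sgk1 stands at 0.84 for MPTP minus control and at -0.86 for hip minus MPTP, whereas Zbtb16 is above 0 in both (0.53 and 0.67).

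Further glucocorticoid-induced genes, taken from a list of 25 of which 22 were tested, differed little as a group. After MPTP 16 were higher and 6 lower than control with a median difference of 0.048, against 0.015 for all probe sets, and 0 passed the adjusted threshold. Klf9, a transcription factor induced by glucocorticoids and thyroid hormone, was the gene of this list whose arrays split between groups as those of Sgk1 did. Its log2 values were 9.96 and 10 in controls, 10.17 and 10.45 in MPTP mice, 10.19 and 10.54 in acupoint mice, and 10.10 and 10.05 in hip mice. Every MPTP and acupoint array was above every control and hip array, by a gap of 0.072, and the MPTP mean exceeded control by 0.33 (SE 0.15, adjusted p = 0.93). Only 104 of all probe sets (0.636%) had this split, Sgk1, Arrdc2 and Klf9 among them, and the split itself had been taken from Sgk1.

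After MPTP, 6 of the 22 tested genes of that list, Klf9 among them, were higher than control without overlap (17.3% of all probe sets). Another 3, Dusp1 and Txnip among them, were lower without overlap (12.1%). Dusp1, a phosphatase that ends MAP kinase signalling and is also switched on by neuronal activity, was at 9.20 and 9.29 in controls, 8.79 and 8.48 in MPTP mice, 8.52 and 8.52 in acupoint mice, and 8.77 and 8.89 in hip mice. All 6 MPTP-treated mice were below both controls, a pattern held by 3.56% of probe sets. The MPTP mean of Dusp1 differed from control by -0.61 (SE 0.13, unadjusted p = 0.0020, adjusted p = 0.93). Txnip, an inhibitor of thioredoxin, differed by -0.32 (SE 0.12, adjusted p = 0.93) after MPTP, and in acupoint mice it was 0.30 higher than after MPTP alone (SE 0.12, adjusted p = 0.90). Per1, a clock gene with its own glucocorticoid response element, was at 8.28 and 8.23 in controls, 8.21 and 8.57 in MPTP mice, 8.40 and 8.43 in acupoint mice, and 8.43 and 8.24 in hip mice, so the MPTP and hip groups overlapped the controls. The metallothionein gene Mt1 ranged only from 11.95 to 12.05 over the 8 arrays.

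Hif3a, a hypoxia-inducible factor subunit, and Ccn2, a matricellular protein, were among the induced genes with the smallest p-values between needling sites. The acupoint mean exceeded the hip mean by 0.34 for Hif3a (SE 0.16, adjusted p = 0.96) and by 0.46 for Ccn2 (SE 0.21, adjusted p = 0.96), without overlap in either case. Of the 22 tested genes of the list, 6 were higher without overlap there (13.9% of all probe sets) and 5 lower (24.6%). Hif3a was at 5.12 and 5.17 in controls, 5.65 and 5.16 in MPTP mice, 5.5 and 5.58 in acupoint mice, and 5.24 and 5.16 in hip mice. Against MPTP alone, Angptl4, an inhibitor of lipoprotein lipase, differed by -0.28 in acupoint mice (SE 0.10, adjusted p = 0.90) and by -0.25 in hip mice (SE 0.10, adjusted p = 0.74). Gpd1, a glycerol-phosphate dehydrogenase, differed by -0.44 in hip mice (SE 0.17, adjusted p = 0.74), and Tgm2, a transglutaminase, by -0.27 in acupoint mice (SE 0.10, adjusted p = 0.90).

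Among the chaperones that hold the receptor ready, the smallest p-values came with the hip mice. Of 17 listed, 15 were tested and 0 passed the adjusted threshold in any comparison. Hspa1a, an inducible heat shock protein 70, was measured at 6.69 and 6.85 in controls, 6.67 and 6.54 in MPTP mice, 6.83 and 6.49 in acupoint mice, and 7.33 and 7.38 in hip mice. Both hip mice were above all other arrays, and their mean exceeded that of the MPTP mice by 0.75 (SE 0.14, unadjusted p = 0.00097, adjusted p = 0.52). In that comparison the marker median was 0.668 for ependymal cells and 1.28 for choroid plexus, and the part of these tissues was not tested. Dnajb1, the partner of Hspa1a from the heat shock protein 40 family, was at 8.89 and 8.73 in hip mice and between 8.28 and 8.48 in the others. It was 0.44 higher in hip mice than after MPTP alone (SE 0.11, adjusted p = 0.62). Of all probe sets, 15.4% were higher in hip than in MPTP mice without overlap. The share with both hip mice above every other array was not counted. Between needling sites, 1 of 15 chaperones was higher in acupoint mice and 14 were lower, with a median of -0.10 against -0.031 for all probe sets. Fkbp4, the co-chaperone that opposes Fkbp5, was at 9.08 and 9.06 in controls, 9.58 and 9.01 in MPTP mice, 9.12 and 8.81 in acupoint mice, and 9.37 and 9.27 in hip mice.

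Receptor coregulators differed little after MPTP, with a median difference of 0.079 over 13 tested of 15 listed. Hdac3, a histone deacetylase of the corepressor complex, was lowest in p, at 10.30 and 10.36 in controls, 9.89 and 9.98 in MPTP mice, 10.22 and 9.91 in acupoint mice, and 9.95 and 10 in hip mice. All 6 MPTP-treated mice lay below both controls, as in 3.56% of probe sets, and the MPTP difference was -0.40 (SE 0.12, unadjusted p = 0.015, adjusted p = 0.93). Ep300, a histone acetyltransferase that acts as a coactivator, was 0.24 higher in each needled group than after MPTP alone (SE 0.12, adjusted p = 0.90 for acupoint and 0.74 for hip). In hip mice 12 of 13 coregulators had higher means than in controls, with a median difference of 0.145 against 0.0052 for all probe sets. Of the 13, 11 were higher without overlap, against 26.9% of probe sets.

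Genes of steroid supply and transport gave small differences. Of 14 listed, 8 were tested, and their median difference after MPTP was 0.048. H6pd, which supplies the cofactor that Hsd11b1 needs, ranged from 6.26 to 6.45 over the 8 arrays. Hsd11b2, the enzyme that inactivates corticosterone, ranged from 5.36 to 6.18, with the highest and lowest values in acupoint mouse 2 and hip mouse 2. Abcb1a, an efflux pump of the blood-brain barrier that keeps steroids out, differed by -0.23 between acupoint and hip mice (SE 0.12, adjusted p = 0.96). Among 6 tested relatives of the receptors, Esr1, the oestrogen receptor alpha gene, was at 6.53 and 6.47 in controls, 6.04 and 6.12 in MPTP mice, 6.25 and 6.24 in acupoint mice, and 6.75 and 6.45 in hip mice. It was 0.53 higher in hip than in MPTP mice (SE 0.12, unadjusted p = 0.0034, adjusted p = 0.59), again beside marker medians of 0.668 for ependymal cells and 1.28 for choroid plexus.

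The kinases and partners of SGK1 did not share its transcript's pattern. Of 13 tested of 15 listed, 6 were higher and 7 lower after MPTP, with a median difference of -0.0015 and 0 at an unadjusted p under 0.05. Nedd4l, the ubiquitin ligase that SGK1 phosphorylates, was at 10.38 and 10.48 in controls, 9.64 and 10.83 in MPTP mice, 10.46 and 10.79 in acupoint mice, and 10.49 and 10.31 in hip mice. Its lowest value was again in MPTP mouse 1, which was poor in striatal neuron markers. Ndrg1, another substrate, was at 10.79 and 10.36 in MPTP mice and at 10.42 and 10.32 in controls. Rictor and Mtor, parts of the complex that activates SGK1, were higher after MPTP by 0.20 (SE 0.12) and 0.16 (SE 0.09), each with an adjusted p of 0.93.

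Genes of the hypothalamic stress axis were also read, although their hormone-producing cells lie outside the striatum. Of 12 tested of 14 listed, 11 were lower after MPTP, with a median difference of -0.18 against 0.015 for all probe sets, and 0 passed. The list's median was 0.185 for acupoint and 0.167 for hip against MPTP. Ependymal markers had medians of -0.505 after MPTP, 0.41 for acupoint and 0.668 for hip against MPTP. Choroid plexus markers had medians of 0.795, 0.203 and 1.28 in the same comparisons. The part of these tissues in the values of the stress axis list, Avpr1a included, was not tested. Crh itself was at 6.96 and 6.86 in controls, 5.57 and 7.03 in MPTP mice, 7.05 and 6.43 in acupoint mice, and 7 and 6.68 in hip mice, so that MPTP mouse 1 alone was far below. Avpr1a, a vasopressin receptor, had the smallest p of the list, at 7.03 and 7.14 in controls, 6.24 and 6.10 in MPTP mice, 6.85 and 6.76 in acupoint mice, and 7.26 and 7.14 in hip mice. It was 1.04 higher in hip than in MPTP mice (SE 0.11, unadjusted p = 2.6e-05, adjusted p = 0.34). Every MPTP and acupoint array (6.10 to 6.85) was thus below every control and hip array (7.03 to 7.26). That is the split of arrays seen for Sgk1, in the opposite direction. The share of probe sets with this reversed order was not counted. Ucn3, a ligand of the second CRH receptor, was 5.97 and 5.56 in controls and 5.30 and 5.24 in MPTP mice. Oxt, the oxytocin gene, was at 9.23 and 8.11 in hip mice and between 7.10 and 7.82 elsewhere.

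**Figure D4:**
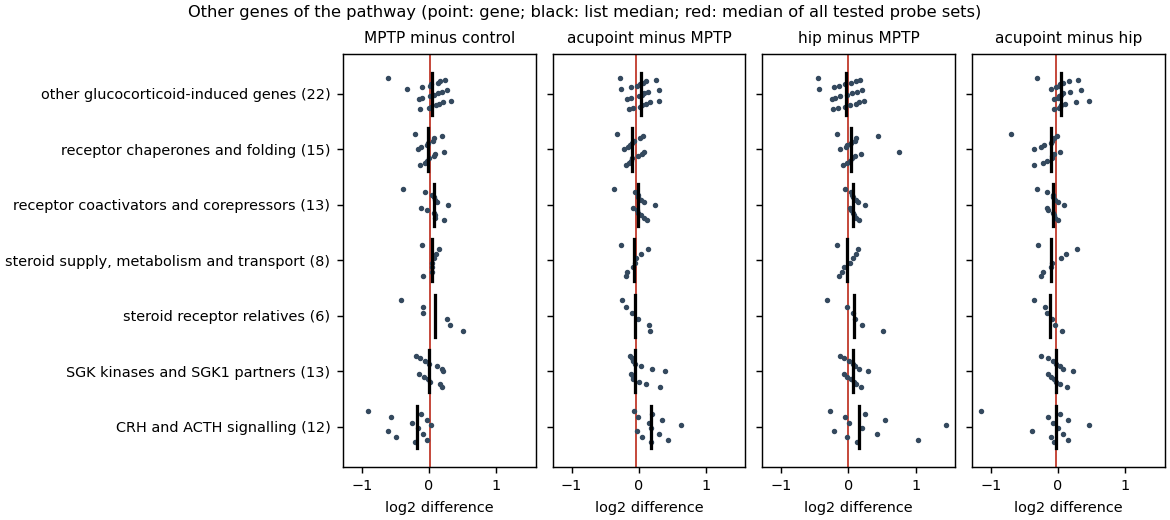
Log2 differences between group means for the tested genes of 7 companion lists in 4 comparisons, with a point per gene, a black line at the list's median and a red line at the median of all tested probe sets. The stress axis genes have medians of -0.18 for MPTP minus control, 0.185 for acupoint minus MPTP and 0.167 for hip minus MPTP, and the medians of the other lists lie between -0.126 and 0.0881.

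Likeness to Sgk1 was measured by Pearson's r over the 8 arrays for 16341 other probe sets, as a description, since the arrays share 4 groups. The 5 highest named genes were Rin3 (r = 0.942), which encodes a Ras and Rab interactor, Micos10 (0.927), of the mitochondrial inner membrane, the ribosomal protein gene Rpl34 (0.908), Atp5pb (0.890), of ATP synthase, and Gstt2 (0.887), a glutathione transferase. Their spans were far smaller than that of Sgk1: Rin3 lay between 5.66 and 5.75 in control and hip mice and between 5.82 and 5.92 in MPTP and acupoint mice. The 3 lowest were Olfm4 (-0.971), Zmiz1 (-0.947) and Mindy4 (-0.937). Olfm4, a secreted olfactomedin, lay between 5.89 and 6.15 in control and hip mice and between 5.39 and 5.59 in the others.

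Among the members, Arrdc2 was the most like Sgk1, with r = 0.654, higher than for 98.5% of probe sets. Fkbp5 followed at 0.419 (90.8%), Tsc22d3 at 0.328 (85.2%), Hsd11b1 at 0.302 (83.3%), Zbtb16 at 0.114 (65.9%) and Plin4 at 0.0086 (54.0%). Nr3c1 was at -0.060 (45.9%) and Nr3c2 at -0.482 (8.82%). All of these values, that of Arrdc2 included, were below those of the 5 genes most like Sgk1. They reuse the Sgk1 levels by which the members were chosen. For Arrdc2, Zbtb16 and Plin4 they also reuse the MPTP and control arrays then in view. The ranks of r therefore lend no independent support.

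**Figure D5:**
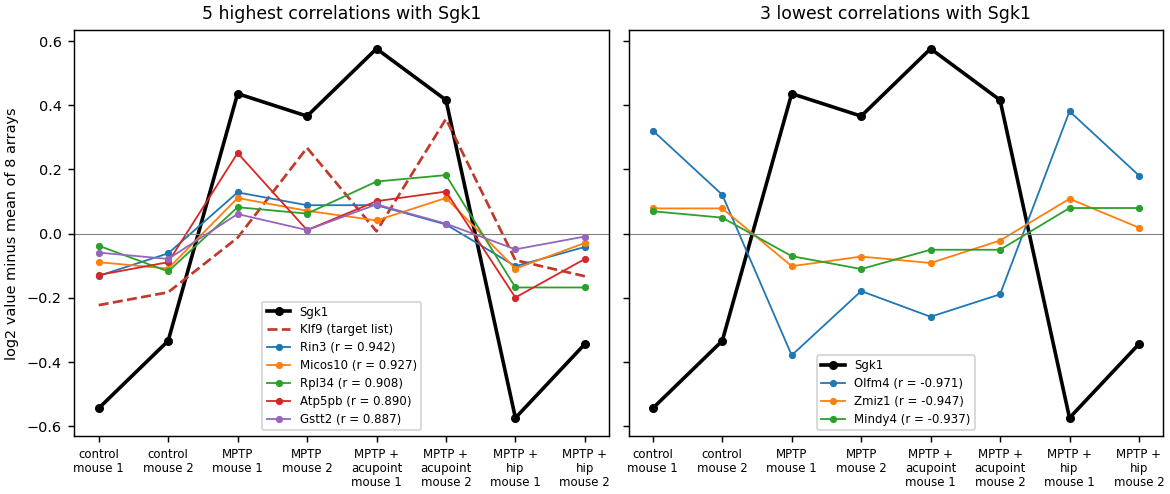
Log2 values minus the mean of the 8 arrays for Sgk1 (black), for Klf9 (dashed) and for the genes with the 5 highest (left) and 3 lowest (right) correlations with Sgk1; lines join the arrays only to guide the eye. The genes on the left share with Sgk1 the split of MPTP and acupoint from control and hip arrays, but not the size. Rin3 spans 5.66 to 5.92, against 8.83 to 9.98 for Sgk1.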

How the data were processed

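Gene arrays covering whole transcripts were hybridised with 300 ng of striatal RNA from each of 8 mice, per the labels' protocols. The authors deposited log2 values per probe set, made with Affymetrix Expression Console and RMA per the submitters' processing notes, with no version given. RMA corrects background, quantile-normalises the arrays and summarises probes, so a shift of most genes together could not be seen. The values were used as they stand. Of 35557 probe sets, 21789 had 1 gene symbol, 1621 several and 12147 none in the platform table. Tests used those with 1 symbol and a mean of at least 5.248, their 25th percentile. All columns belong to samples of the series.

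Groups were compared in 1 linear model fitted to all arrays (limma 3.58.1 under R 4.3.3, with lmFit and eBayes, 4 residual and 2.94 prior degrees of freedom), with Benjamini-Hochberg adjustment over all 16342 probe sets and a threshold of 0.05. The labels describe separate mice, and their number limits the precision of every value. Exact permutation of 2 against 2 arrays has 0.333 as its smallest two-sided p. Intervals are 95% intervals of the model. Where a list gene had several probe sets, the brightest stood for it. The members and lists were chosen with earlier results of these data known. Named genes were the members, up to 3 genes of each list with the smallest p in each of the 4 comparisons shown in the plot of differences, the 5 most and 3 least like Sgk1, and marker genes. Some other list genes (such as Per1, Mt1, Nedd4l and Crh) were named after their values were seen. The self-test on simulated data, with 200 of 16342 probe sets changed between MPTP and control in each of 5 runs, called 92.1% of changes of 2 on the log2 scale, 63.6% of changes of 1 and 5.67% of changes of 0.5. The simulated noise was independent between probe sets and equal across arrays, with no array that stood apart. These rates therefore need not hold for the measured arrays. Promoter sequences are RefSeq's (GRCm38.p6). The build behind the array annotation is not given in the sources used here. Alternatives tried were other filters, scalings, shrinkage, array weights, fits of 2 groups, a replicate block and leaving out each array.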

Additional observations from a re-analysis of the deposited data

How the results depend on the processing

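The 0 calls of limma in each of the 6 comparisons stayed at 0 under other filters, scalings, shrinkage and array weights, and with the mouse number as a replicate block (0 in each). Under the stricter filter Arrdc2, Plin4 and Hsd11b1 were not tested. Fits of only the 2 groups compared gave 1 call for acupoint against control and 2 for hip against control. Leaving out each array gave 0 to 1607 calls for MPTP against control, 0 to 1453 for acupoint against MPTP and 0 to 794 for hip against MPTP, with the higher counts only without MPTP mouse 2. The counts of targets above control without overlap, chosen after seeing the data, went from 4 to 6 for MPTP over scalings and left-out arrays. The same mouse number does not mark a shared animal, and deviations of the mice numbered 1 correlated between -0.492 and 0.402, so the numbers were not taken as pairs.

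Without MPTP mouse 2, its group held only mouse 1, the array poor in striatal neuron markers (-2.07), so its own spread could not be seen. The differences from control were then 0.92 for Tsc22d3, -0.65 for Nr3c2 and 1.16 for Hsd11b1. For Nr3c2, acupoint and hip against MPTP then gave 0.59 and 0.66. A second quantile normalisation turned hip against MPTP for Tsc22d3 (-0.026), acupoint against hip for Hsd11b1 (0.018) and hip against control for Nr3c2 (-0.036), and median centring turned hip against control for Sgk1 (0.033), all with differences near 0; the cause was not tested.

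Directions also turned when 1 array was left out. Against control, MPTP differences ranged from -0.0031 to 0.92 for Tsc22d3, -0.024 to 0.20 for Nr3c1 and -0.36 to 1.16 for Hsd11b1. Acupoint against MPTP ranged from -0.056 to 0.28 for Fkbp5, -0.56 to 0.36 for Tsc22d3, -0.13 to 0.63 for Zbtb16, -0.28 to 0.057 for Arrdc2, -0.18 to 0.044 for Nr3c1 and -0.85 to 0.66 for Hsd11b1. Hip against MPTP ranged from -0.10 to 0.23 for Fkbp5, -0.45 to 0.47 for Tsc22d3, -0.068 to 0.086 for Plin4, -0.028 to 0.20 for Nr3c1 and -0.84 to 0.67 for Hsd11b1. Acupoint against hip ranged from -0.30 to 0.078 for Tsc22d3 and -0.29 to 0.27 for Hsd11b1. Against control, acupoint ranged from -0.046 to 0.21 for Plin4 and -0.057 to 0.10 for Nr3c1, and hip against control from -0.13 to 0.10 for Sgk1 and -0.037 to 0.053 for Nr3c2. The differences of Sgk1 between MPTP or acupoint and control or hip kept their direction in all these fits, as did hip against MPTP for Zbtb16 and Arrdc2.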
